A study of Mus musculus with 2 samples.

Results

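Insulin and insulin-like growth factor 1 (IGF1) act through a shared relay of proteins, and 10 mouse genes of this relay are described here: the ligand Igf1, the receptors Insr and Igf1r, the adaptors Irs1 and Irs2, the phosphoinositide 3-kinase (PI3K) subunit Pik3r1, the kinases Akt1 and Akt2, and the transcription factors Foxo1 and Foxo3. They were chosen by name, with earlier results of these data known, and were taken from a deposited table of 55536 mouse genes; all 10 were found there by symbol and gene identifier. Because the list was drawn up in that way, every level and ratio below is a description and carries no test. Total RNA had been sequenced from whole hearts of 2 female B6CASTF1/J mice, a first-generation cross between C57BL/6J and CAST/EiJ supplied by The Jackson Laboratory, at an age of 36 days. Both animals were of the same genotype and untreated as far as the labels say, so they form 1 group with no second condition. The labels call them biological replicates 1 and 2 and give them animal numbers and biosamples of their own, but list 1 donor identifier for both. The input was 300 ng of RNA, to which ERCC spike-in RNAs, synthetic transcripts of set amounts, had been added.

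In this pathway, a ligand binds a receptor tyrosine kinase, the receptor phosphorylates the IRS adaptor proteins, and these recruit PI3K, whose lipid product brings AKT kinases to the membrane. AKT then promotes glucose uptake, protein synthesis and growth, and phosphorylates FOXO transcription factors, which keeps them out of the nucleus. In heart muscle the pathway is known for its part in postnatal growth of the muscle cells and in the choice between glucose and fatty acids as fuel.

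Expected counts, the estimated number of reads assigned to a gene, summed to 39053339 in replicate 1 and 38332179 in replicate 2. Levels are the authors' TPM values, transcript abundances scaled to a common sum in each library, which are corrected for transcript length and may be compared between genes. Detection meant 1 TPM or more in both animals. The deposited files hold 2 separate quantifications of each library, the first from alignments to the transcriptome and the second from an index of transcripts. All values are from the first unless the second is named. The 6 cardiomyocyte markers were all detected and summed to 23004 and 22984 TPM, led by the myosin gene Myh6 at 8639 ± 451 TPM (SD, n = 2), with the calcium release channel Ryr2 lowest at 371 ± 21.7 TPM. Markers of blood and fat differed between the animals: all 6 erythroid markers, from Hbb-bs (8552 ± 6161 TPM) down to Slc4a1 (5.29 ± 3.51 TPM), were lower in replicate 2 by at least 1.5-fold, with a summed TPM of 36363 and 11883. For brown adipocytes the same held for 4 of 6 markers. The 6 summed to 1231 and 1064 TPM, most of it Cox8b at 1084 and 999.6 TPM, which was not among the 4. Of 6 white adipocyte markers, 4 had counts that summed to 50 or more, and 2 of these were lower by that size. Among all genes with that many counts, 2.66% were lower by it. Ucp1, the uncoupling protein of brown fat, was at 52.6 and 7.95 TPM and was picked with its values known. Of the 6 markers each of fibroblasts, endothelial cells, smooth muscle and macrophages, none differed by that size. In bulk tissue, fewer cells of a type and less RNA per cell cannot be told apart.

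All 10 genes were detected, as were 12024 of the 55536 genes in the table (21.7%). They summed to 328 TPM in replicate 1 and 303 TPM in replicate 2, and their levels spanned 5.18 TPM (Foxo1) to 74.2 TPM (Akt1). The order of mean TPM was Akt1, Akt2, Insr, Pik3r1, Foxo3, Irs1, Irs2, Igf1r, Igf1 and Foxo1. Of the 9 pairs of neighbours in this order, 5 had ranges over the animals that did not overlap: Akt2 lay above Insr, Pik3r1 above Foxo3, Foxo3 above Irs1, Irs1 above Irs2, and Igf1r above Igf1. Akt1 and Akt2, Insr and Pik3r1, Irs2 and Igf1r, and Igf1 and Foxo1 did not separate. In the second quantification 6 of the 9 pairs separated: Igf1r and Igf1 no longer did, whereas Akt1 lay above Akt2 and Igf1 above Foxo1. Pik3r1 and Insr changed places in the order there. With 2 animals, a range is a weak measure of spread.

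**Figure D1:**
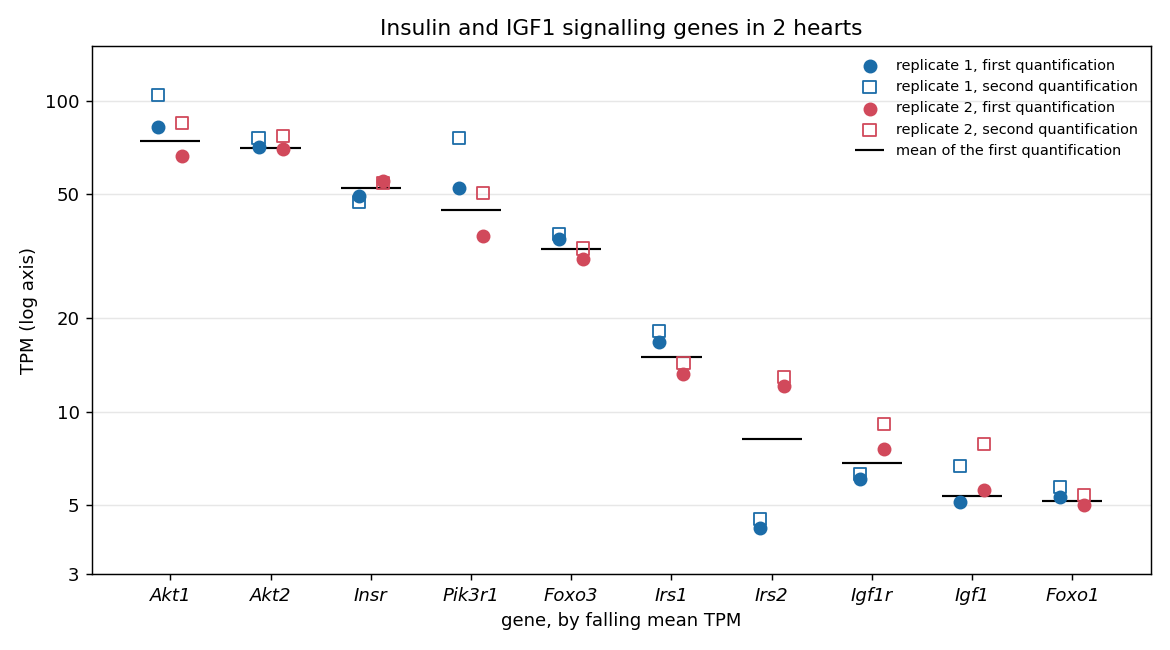
TPM on a log axis for the 10 genes in each animal, by falling mean. Filled circles are the first and open squares the second quantification, blue is replicate 1 and red replicate 2, and the black line is the mean of the first quantification. Irs2 is the gene whose points lie farthest apart, at 4.21 and 12.08 TPM, while Akt2 at 70.94 and 70.00 TPM has points that nearly coincide.

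Igf1, the growth factor that heart, liver and many other tissues secrete, was at 5.12 TPM in replicate 1 and 5.58 TPM in replicate 2, from 760 and 721 expected counts. The animals differed little, with a log2 ratio of replicate 2 over replicate 1 of 0.03 and a 95% counting interval of -0.12 to 0.18. These ratios are of expected counts, scaled by effective library sizes, and their intervals cover counting error only and not the variation between animals. The gene spans chr10:87858265-87937042 on the plus strand of mm10 and has 8 annotated transcripts. Igf1-202, the longest model, skips a 52-base coding exon and led with 57.8% ± 3.64 of Igf1 TPM (SD, n = 2), or 49.4% ± 7.45 by the second quantification. The skipped exon lies at chr10:87915298-87915349. With it the precursor ends in the Eb peptide, and without it in the Ea peptide, tails that are removed from the mature hormone. The exon is shown in capitals between 20 bases of each neighbouring exon, since its presence is what separates the forms.
Igf1-203: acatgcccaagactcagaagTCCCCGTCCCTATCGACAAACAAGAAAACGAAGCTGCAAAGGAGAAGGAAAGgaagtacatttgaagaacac
Igf1-202: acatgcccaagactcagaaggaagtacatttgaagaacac
The 3 transcripts that hold this exon took 25.2% and 25.6% of the Igf1 TPM in the first quantification and 14.0% and 11.8% in the second. Only 63.8 and 44.8 expected counts stood behind them in the first, and 9.74 and 9.62 estimated counts in the second. Both quantifications thus placed most Igf1 RNA in forms without the exon, and the size of the minor share differed between them. Igf1-205, which also lacks the exon, held 15.03% ± 3.58 by the first quantification and 36.0% ± 9.39 by the second. Within the first, the exon-holding TPM sat on Igf1-203 alone in replicate 1 (25.2%) and was split between Igf1-203 (12.01%) and Igf1-206 (13.6%) in replicate 2, whereas the second gave Igf1-203 at most 0.0785%. Transcripts that start at the downstream first exon, known as class 2, held 1.95% and 14.0% in the first quantification and 16.0% and 12.3% in the second, so their level was not settled at this depth.

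Insr, which encodes the insulin receptor, was the higher of the receptor genes, at 49.42 TPM in replicate 1 and 55.12 TPM in replicate 2 (9085 and 10088 expected counts). Its log2 ratio was 0.25, with a counting interval of 0.21 to 0.29. Igf1r, the receptor for IGF1, was at 6.08 and 7.59 TPM (1954 and 2341 expected counts), with a log2 ratio of 0.36 and an interval of 0.28 to 0.45. Both receptor genes were thus higher in replicate 2. Of the receptors' summed TPM, Insr made up 89.0% in replicate 1 and 87.9% in replicate 2. The second quantification gave 88.2% and 85.6%. Insr spans chr8:3122061-3279617 on the minus strand and Igf1r chr7:67952827-68233668 on the plus strand.

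The insulin receptor occurs as isoforms A and B, which lack or hold a short exon near the end of the ligand-binding part, and isoform A also binds IGF2. In the annotation used, Insr-201 is the full-length form without this 36-base exon, and the exon (chr8:3181702-3181737) is held only by Insr-203, an incomplete model of 672 bases. The exon is shown in capitals between 20 bases of each neighbouring exon, since it separates the isoforms.
Insr-203: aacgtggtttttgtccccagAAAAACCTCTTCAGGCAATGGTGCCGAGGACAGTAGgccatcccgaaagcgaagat
Insr-201: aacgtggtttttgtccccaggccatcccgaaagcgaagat
Insr-203 received 14.6% and 15.3% of Insr TPM by the first quantification and 21.3% and 20.9% by the second, from 130 and 147 expected counts and 111 and 122 estimated counts. The animals were alike in both. Reads from the rest of a full-length RNA with this exon can only be given to other models, such as Insr-201. These shares are therefore those of the model Insr-203 and not of isoform B. Insr-201 led with 58.2% ± 1.60 by the first quantification and 68.3% ± 0.344 by the second (SD, n = 2). A retained-intron model at the start of the gene, Insr-202, took 26.8% and 24.0% in the first but 9.01% and 9.04% in the second. Summed over all its retained-intron models, Insr had 26.8% ± 2.09 of its TPM there in the first quantification, a higher share than 88.1% of 6728 detected genes with such a model, and 10.6% ± 0.0702 in the second, higher than 64.6% of them. For Igf1r, Igf1r-201 led with 88.0% ± 0.197 and 87.6% ± 9.51 in the first and second.

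Irs1 and Irs2 encode the main docking proteins between the receptors and PI3K, and they stood in opposite directions in these animals. Irs1 was at 16.72 TPM in replicate 1 and 13.18 TPM in replicate 2 (4753 and 3630 expected counts). Its log2 ratio was -0.29, with a counting interval of -0.35 to -0.22. Irs2 was at 4.21 and 12.08 TPM (824 and 2288 expected counts), 2.98-fold higher in replicate 2, with a log2 ratio of 1.58 and an interval of 1.46 to 1.69. The second quantification gave Irs2 4.52 and 12.9 TPM, with a log2 ratio of 1.56. As a result Irs2 made up 20.1% of the summed TPM of both adaptors in replicate 1 and 47.8% in replicate 2, and 19.9% and 47.4% in the second quantification. Irs1 was the higher gene in each animal. With spike-in counts as the scale the log2 ratio of Irs1 was -0.04 and that of Irs2 1.82.

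Irs2 was the 1 gene of the 10 that differed by at least 1.5-fold between the animals, a size that 5.17% of the 13745 genes whose counts summed to 50 or more reached: 2.51% were higher and 2.66% lower in replicate 2. Among the 6957 genes within the range of mean TPM of the 10, 2.39% reached it, 0.949% higher and 1.44% lower, a comparison chosen after seeing the data. A ratio at least as high as that of Irs2 was found for 23 of the 13745 genes (0.167%). Since the gene list was made with such results known, this count is no evidence about the list. The gene has 1 annotated transcript, Irs2-201, so no choice among transcripts enters its value. The only annotated gene that overlaps it, on the opposite strand, had 1 count in each library.

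Some genes of the immediate early and clock lists differed by at least 1.5-fold between the hearts, while 4 of 8 and 7 of 12 did not. Of the 8 immediate early genes, 3 were higher by at least 1.5-fold in replicate 2 and 1 was lower, and their summed TPM was 52.6 and 93.0. Nr4a1, picked with its values known, was at 4.01 and 35.5 TPM, while Jun, the highest of the list, was at 20.2 and 22.9 TPM and Fosb, the lowest, at 0.75 and 0.31 TPM. Of 12 clock genes, 4 were higher and 1 was lower by that size, with a sum of 207 and 251 TPM. Over all 13745 genes with enough counts, 2.51% were higher and 2.66% lower by it. Both lists were made with earlier results of these data known. Dbp was at 28.5 and 56.9 TPM and Arntl at 3.67 and 1.37 TPM, both likewise picked with their values known. No gene of either list was at 0 counts in both libraries. The part of these differences, or of those in blood and fat markers, in the Irs2 values was not tested.

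Windows around gene starts were searched for short motifs, and parts of those of Irs1 and Irs2 are shown because both held the same motif. RefSeq windows on GRCm38.p6, each running from 250 bases before to 50 bases after a start, were found for 9 of the 10 genes, 14 windows in all; Insr was not matched. Both adaptor genes held an E-box, CACGTG, which clock and other basic helix-loop-helix factors are known to recognise. It reads the same on both strands and begins at position -115 from the start for Irs1 and -44 for Irs2. The motif is in capitals in the 60 bases shown, at chr1:82291522-82291581 for Irs1 and chr8:11008941-11009000 for Irs2, both on the minus strand.
Irs1: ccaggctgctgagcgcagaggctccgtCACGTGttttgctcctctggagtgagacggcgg
Irs2: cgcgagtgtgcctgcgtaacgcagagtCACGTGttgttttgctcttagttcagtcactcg
RefSeq places the start of each of these genes upstream of the start in the annotation used for counting, so both stretches lie outside the gene spans given for that annotation. These were 2 of the 14 windows, and 7.15% of all 32851 windows hold the motif. The Irs1 and Irs2 windows were 71.3% and 72.0% G and C and held 28 and 41 CG pairs. Over all windows the medians were 52.7% and 7. The motif itself holds a CG, so 7.15% is not a share among windows of like composition. The FOXO motif TGTTTAC, searched on both strands, was in 1 of the 14 windows, at Akt1, and in 3.65% of all. The cyclic AMP response element TGACGTCA was in 0 of 14 and in 1.79% of all. A match is a run of letters and does not show binding.

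Pik3r1 encodes the p85 alpha regulatory subunit of PI3K, which binds the phosphorylated IRS proteins, and shorter products of the same gene are known as p55 alpha and p50 alpha. It was at 52.33 TPM in replicate 1 and 36.82 TPM in replicate 2 (11113 and 7223 expected counts). It was thus 1.43-fold lower in replicate 2, with a log2 ratio of -0.52 and an interval of -0.56 to -0.48. A ratio as low or lower was found for 3.40% of the 13745 genes. The second quantification gave higher levels, 76.0 and 50.3 TPM, but the same log2 ratio of -0.52. Among the regulatory subunits of this class Pik3r1 held 80.6% and 74.9% of the summed TPM. Pik3r2 was at 8.18 and 8.81 TPM and Pik3r3 at 4.45 and 3.54 TPM, so the other two stayed far below it in both animals.

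The higher Pik3r1 level of the second quantification came with a different placing of reads on transcripts. The gene spans chr13:101680563-101768217 on the minus strand and has 7 annotated transcripts. Pik3r1-202, the only one with the full coding part, led with 91.7% ± 4.62 of the gene's TPM (SD, n = 2), against 67.5% ± 0.295 by the second quantification. Coding transcripts that start further downstream took 1.66% and 3.78% in the first but 28.2% and 25.5% in the second. These shares stood on 516 and 276 estimated counts in the second quantification, and most of their TPM was on Pik3r1-205, a model of 701 bases. Short models turn few reads into a large TPM, and the balance of long and short forms was therefore not settled by these files. Of the 3 retained-intron models, Pik3r1-206 had 61.7 expected counts in replicate 1 and 189 in replicate 2, while Pik3r1-203 had 6.19 and 2.18 and Pik3r1-207 had 7.41 and 4.21. In the second quantification the 3 summed to 3.41 TPM in each animal. A further annotated gene without a known product, Gm36638, overlaps Pik3r1 on the same strand under 2 identifiers and had 37 and 76, and 10 and 26 counts.

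Akt1 and Akt2 encode the kinases at the centre of the pathway, Akt1 known mainly for growth and Akt2 for glucose uptake. Akt1 was at 82.03 TPM in replicate 1 and 66.35 TPM in replicate 2 (6204 and 4926 expected counts), with a log2 ratio of -0.23 and an interval of -0.28 to -0.18. Akt2 was at 70.94 and 70.00 TPM (5304 and 4822 expected counts), with a log2 ratio of -0.04 and an interval of -0.09 to 0.02. Akt1 was above Akt2 in replicate 1 and below it in replicate 2, so the first quantification did not order them. In the second quantification Akt1 was higher in both animals, at 104 and 84.7 TPM against 76.0 and 77.0 TPM.

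Akt1-201 led among the 9 transcripts of Akt1 (chr12:112653821-112674884, minus strand) with 88.8% ± 1.80 by the first quantification and 78.0% ± 2.11 by the second. The second gave 16.2% ± 0.827 to Akt1-208, an incomplete model that held 0 counts in the first. Akt2 (chr7:27591552-27640826, plus strand) was the 1 gene of the 10 whose leading transcript differed between the quantifications. The first placed 51.3% ± 1.30 on Akt2-201 and 1.74% ± 0.234 on Akt2-204, and the second 25.5% ± 7.45 and 45.5% ± 3.37. Akt2-206 (18.2% ± 4.17) and Akt2-214 (11.1% ± 0.106) held TPM only in the first quantification, and Akt2-210 held 3.98% ± 0.815 in the first and 18.9% ± 5.05 in the second. Akt2-201 and Akt2-204 encode a coding part of the same length, 1443 bases, and differ before it. The 4 transcripts with the full coding part together took 73.2% ± 2.58 in the first and 76.7% ± 4.56 in the second, so this sum depended less on the quantification than the single forms did. Akt2 was also the only one of the 10 genes whose expected counts were not whole numbers in both libraries, meaning that some of its reads were shared with other genes.

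**Figure D2:**
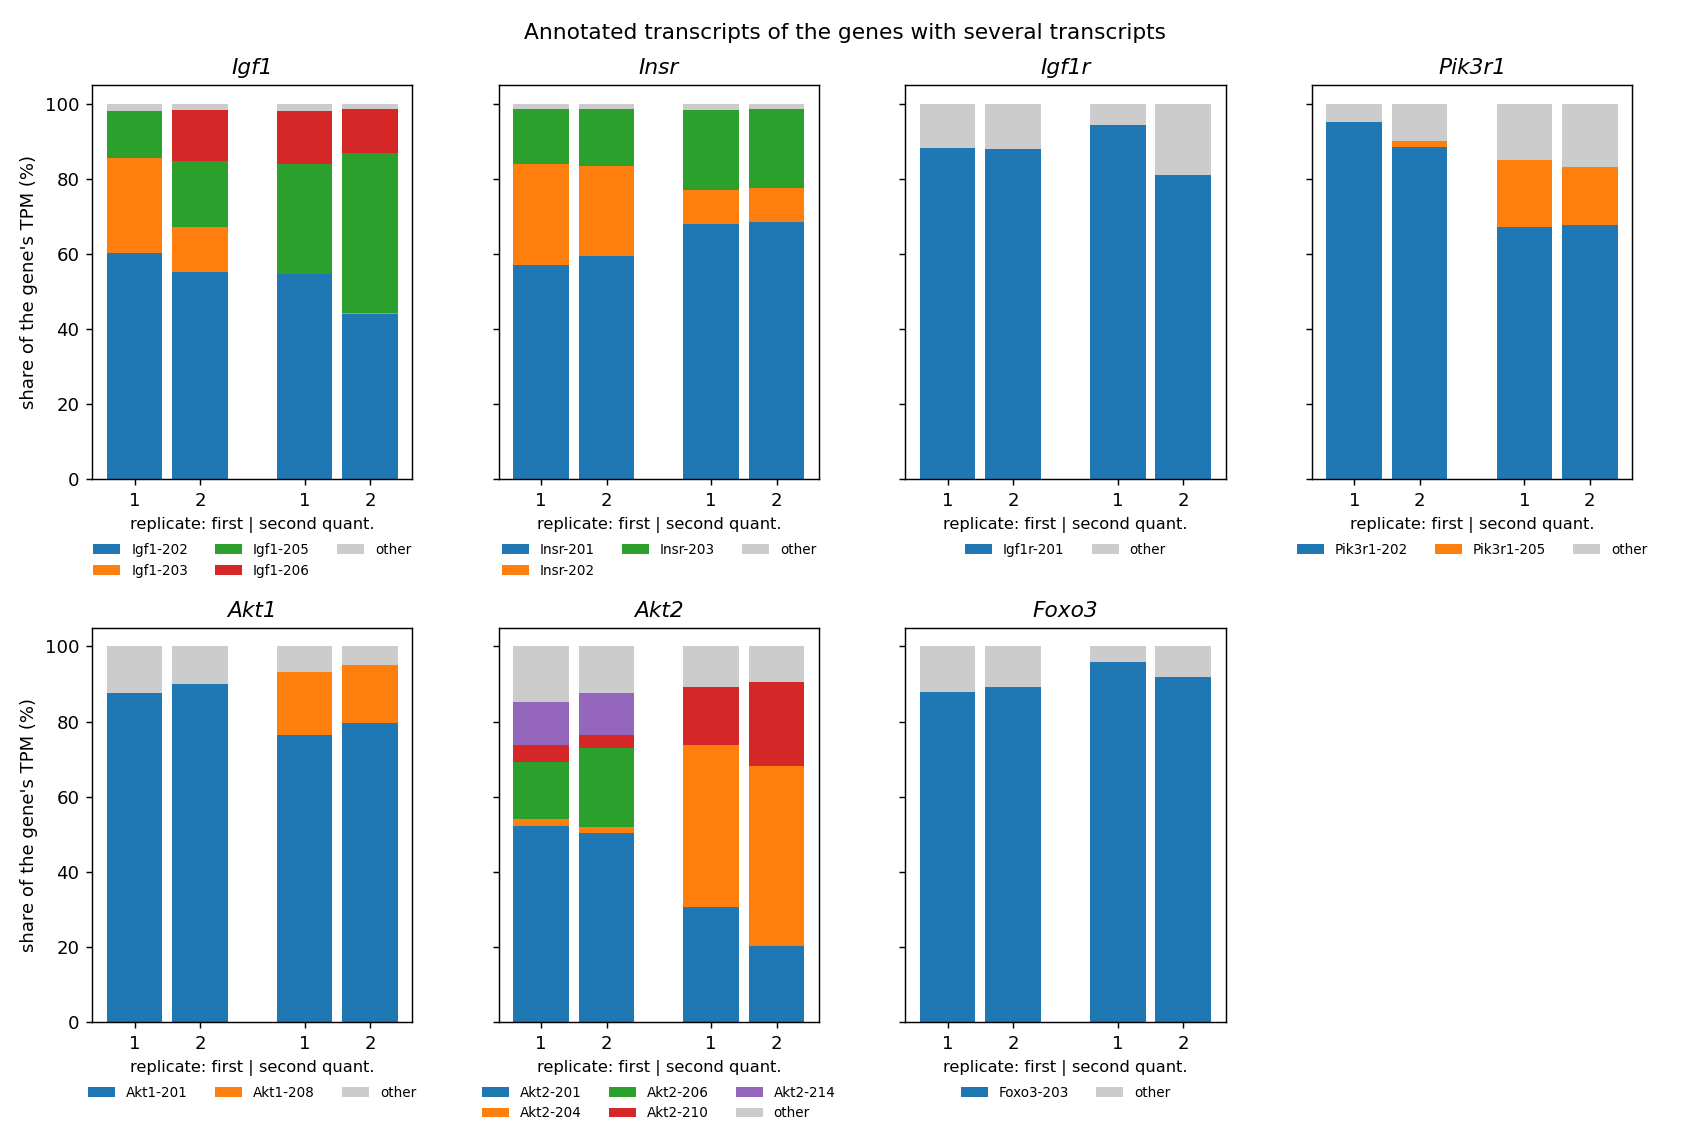
Share of each annotated transcript in its gene's TPM, in percent, for the 7 genes with several transcripts. In each panel the left pair of bars is the first and the right pair the second quantification, 1 and 2 are the replicates, and grey collects transcripts that stay below a mean of 10% in both. The leading transcript, in blue at the base, is the same in both quantifications for every gene drawn except Akt2, where Akt2-204 leads in the second.

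Foxo1 and Foxo3 encode forkhead factors that AKT holds in check, and both act on genes of muscle protein breakdown, autophagy and stress resistance. Foxo3 was the higher gene, at 35.88 TPM in replicate 1 and 31.04 TPM in replicate 2 (6941 and 5880 expected counts), with a log2 ratio of -0.14 and an interval of -0.19 to -0.09. Foxo1 was at 5.33 and 5.02 TPM (1434 and 1309 expected counts), with a log2 ratio of -0.03 and an interval of -0.14 to 0.08. Of the TPM of the 4 FOXO genes, Foxo3 held 53.0% ± 3.20, Foxo4 36.4% ± 2.82, Foxo1 8.20% ± 0.00272 and Foxo6 2.46% ± 0.383 (SD, n = 2). Foxo4, outside the 10 genes, was thus well above Foxo1, at 22.3 and 23.5 TPM. Foxo3 (chr10:42181841-42276755, minus strand) was led by Foxo3-203 with 88.4% ± 0.957 and 93.9% ± 2.91 in the first and second quantification, and Foxo1 (chr3:52268336-52353221, plus strand) has 1 annotated transcript, as has Irs1 (chr1:82233101-82291416, minus strand). Irs2 lies at chr8:10984681-11008458 on the minus strand.

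**Figure D3:**
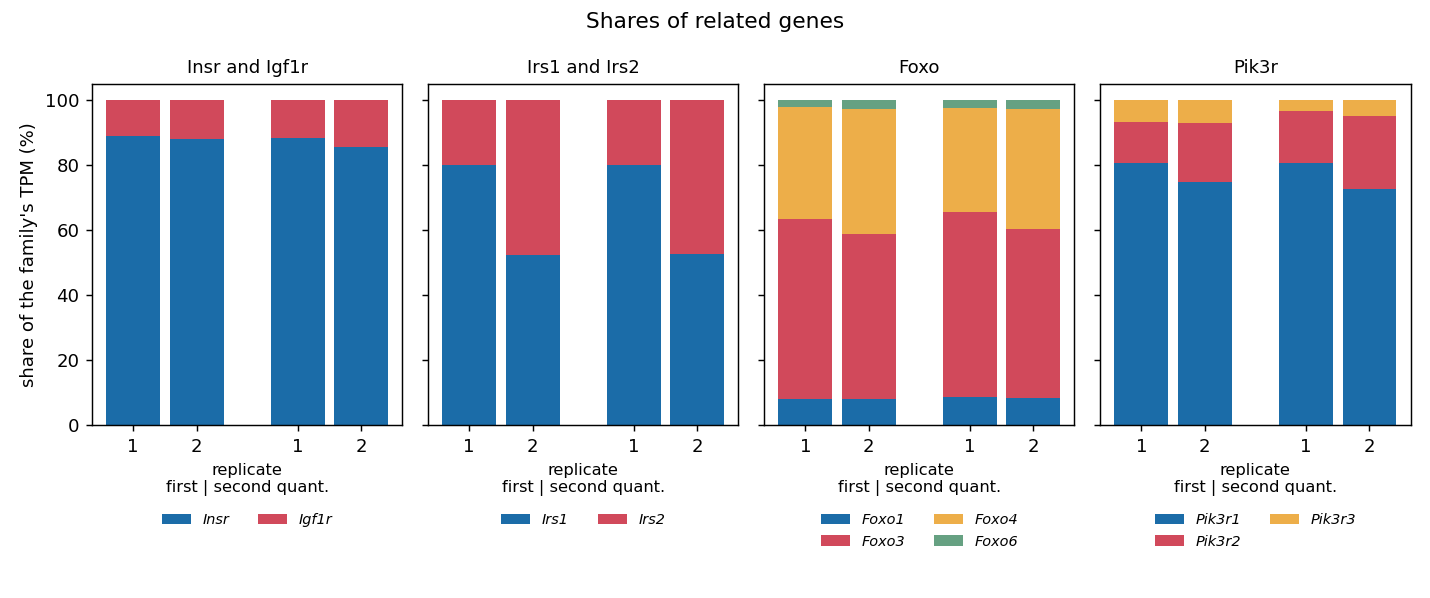
Share of each gene in the summed TPM of its family, in percent, for the receptors, the Irs adaptors, the Foxo genes and the regulatory PI3K subunits. Each panel has the first quantification on the left and the second on the right, with replicates 1 and 2 as separate bars. The Irs panel shows the widest step between the animals, from 20.1% to 47.8% Irs2 in the first quantification, and Insr, Irs1, Foxo3 and Pik3r1 lead their panels in every bar.

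Of the 10 genes, 4 were higher and 6 lower in replicate 2, with a median log2 ratio of -0.03 beside 0.00 for all genes. Both receptor genes were higher, both AKT and both FOXO genes lower, and the IRS genes differed in sign. Igf1, Akt2 and Foxo1 had counting intervals that held 0. Insr, Igf1r, Irs1, Irs2, Pik3r1, Akt1 and Foxo3 did not on this scale, so counting error alone did not cover their differences there, but no spread between animals of a group larger than 2 was available to set them against. The middle 95% of the 13745 genes with enough counts lay between -0.61 and 0.59, and of the 10 only Irs2 lay outside it. For genes in the same range of mean TPM, a set chosen after seeing the data, the middle 95% lay between -0.44 and 0.36. Irs2, Pik3r1 and, narrowly, Igf1r lay outside this narrower band. Scaling by the spike-in RNAs, which puts the median of all genes at 0.24, turned the ratios of Akt1, Akt2, Foxo1 and Foxo3 to above 0 (0.01, 0.21, 0.21 and 0.11). Scaling by total counts turned that of Igf1 to -0.05, and total counts without mitochondrial and haemoglobin genes turned it to -0.02. On the spike-in scale the ratios of Irs1 and Akt1 were each within their counting error of 0. Insr, Igf1r, Irs1, Irs2 and Pik3r1 kept their directions under every scale used.

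**Figure D4:**
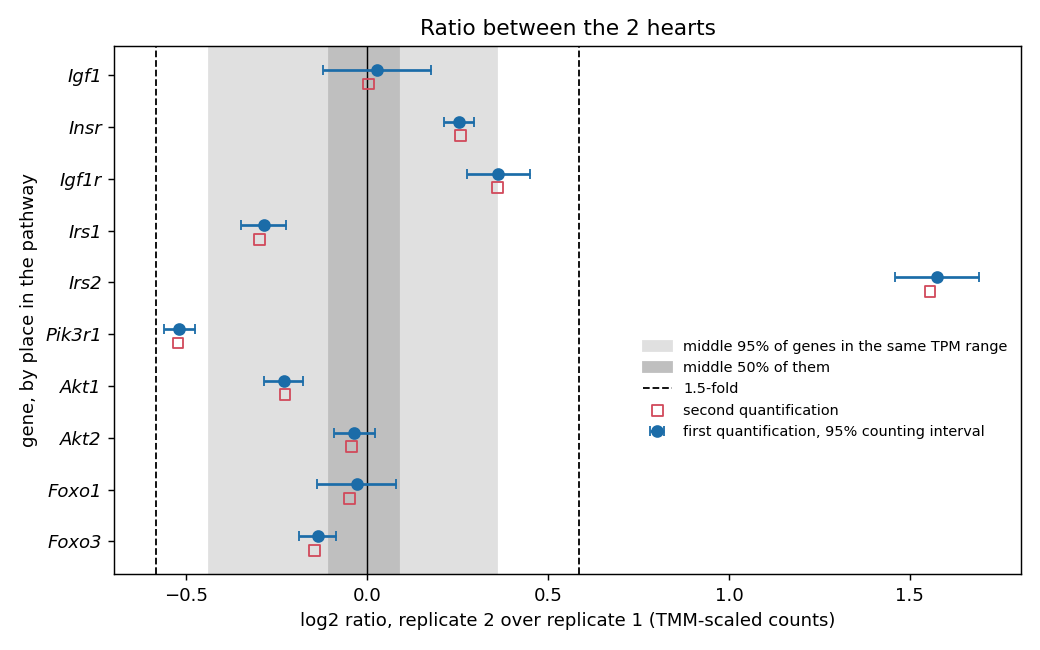
Log2 ratio of replicate 2 over replicate 1 for the 10 genes, ordered from ligand to transcription factor. Blue points with bars are the first quantification with 95% counting intervals, open squares the second, the pale band holds the middle 95% and the dark band the middle 50% of genes in the same TPM range, and dashed lines mark 1.5-fold. This TPM range was chosen after seeing the data. Irs2 at 1.58 lies alone to the right of the dashed lines, and Pik3r1 at -0.52 lies left of the pale band but inside 1.5-fold.

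A wider list of 104 pathway genes, which includes the 10, was drawn up by role. Of these, 92 (88.5%) were detected, beside 21.7% of all genes, and 95 had counts that summed to 50 or more. Among the 94 others, 82 were detected, and of the 85 with enough counts 1 was higher and 1 lower by at least 1.5-fold, beside 2.51% and 2.66% of all genes, with a median log2 ratio of -0.01. These were Pdk4, at 295 and 450 TPM, and Sh2b2, an adaptor at 0.83 and 0.30 TPM from 68 and 24 counts.

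Upstream of the receptors, 2 of 4 ligand genes were detected. Igf2, the fetal growth factor, was the highest at 39.5 and 28.1 TPM. The insulin genes Ins1 and Ins2 had 0 counts in both libraries. A count of 0 allows up to 3 counts, which would be 0.0202 TPM for a gene with the effective length of Igf1 in replicate 1. Most Igf1 counts were on Igf1-202, of 7052 bases, and 3 counts give more TPM on a shorter RNA. The 453-base Akt2-206, for example, had 10.79 TPM from 120 counts in replicate 1. The limit for Ins1 and Ins2 themselves was not computed. Islet markers were all at 0 as well. Among receptors, Igf2r, which clears IGF2, was at 43.6 and 40.6 TPM, and Insrr, a receptor of the same family, was the lowest at 0.05 and 0.01 TPM. Of 11 IGF-binding proteins and their partners, 7 were detected, from Igfbp7 at 94.96 ± 7.32 TPM (SD, n = 2) down to Igfbp1 with 0 counts, and none differed by 1.5-fold. Among 11 adaptors, 8 were detected, with Grb2, which links receptors to the RAS pathway, highest at 39.0 ± 3.16 TPM and Irs4 at 0 counts.

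Further down, 8 of 9 PI3K subunits were detected, with Pik3r1 highest and Pik3cg, which encodes a catalytic subunit, lowest at 0.615 ± 0.0354 TPM. All 9 AKT kinases and activators were detected, and Prr5, a part of mTOR complex 2, was the lowest at 1.40 ± 0.0707 TPM. Of 18 inhibitors, 17 were detected. Grb14, which binds and inhibits the insulin receptor, was highest at 67.7 ± 2.14 TPM, above the mean level of Insr itself, and Socs1 was lowest at 0.165 ± 0.0636 TPM. None of the genes with enough counts in these 3 groups differed by 1.5-fold.

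The outputs of the pathway were detected throughout. All 9 genes of mTOR complex 1 and growth were detected, from the ribosomal protein gene Rps6 at 191 ± 3.90 TPM to its kinase gene Rps6kb1 at 7.36 ± 1.41 TPM. All 8 glucose uptake genes were detected, and Slc2a4, the insulin-regulated glucose transporter, was highest at 149 ± 3.72 TPM while the basal transporter Slc2a1 was lowest at 4.35 ± 0.346 TPM. Neither group held a gene past 1.5-fold. All 22 known FOXO targets on the list were detected, led by Sod2, a mitochondrial antioxidant enzyme, at 393 ± 23.9 TPM, with the deacetylase Sirt1 lowest at 4.39 ± 0.240 TPM. Of these targets, 16 were higher and 6 lower in replicate 2, with a median log2 ratio of 0.13. Over all 13745 genes, 6872 were higher and 6873 lower, with a median of 0.00. Pdk4, which blocks pyruvate oxidation, and Irs2 were the 2 past 1.5-fold, a size reached by 5.17% of all genes. Both were higher in replicate 2, and Pdk4 had a log2 ratio of 0.77 with an interval of 0.75 to 0.79. The list includes Insr and Irs2, and it was made with earlier results of these data known, so its count is a description.

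**Figure D5:**
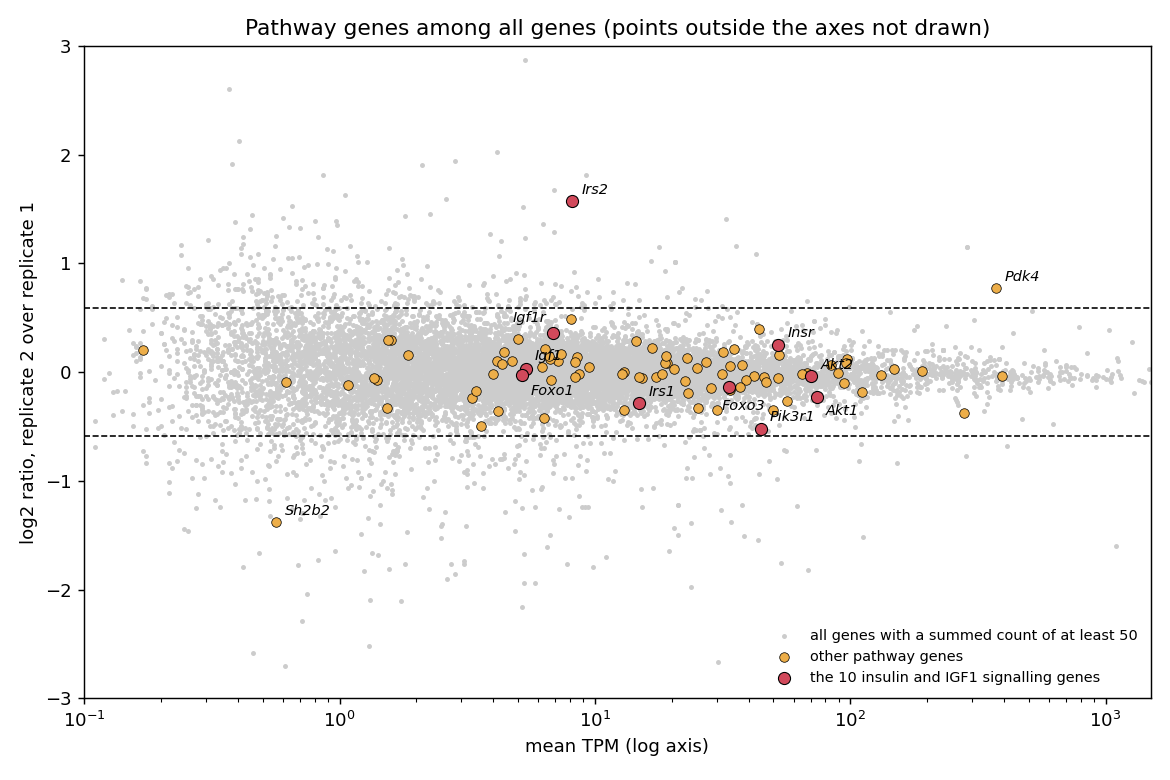
Mean TPM on a log axis against the log2 ratio of replicate 2 over replicate 1 for all genes whose counts summed to 50 or more (grey), the 10 genes (red) and the other pathway genes (orange), with dashed lines at 1.5-fold. Irs2, Pdk4 and Sh2b2 are the pathway genes outside the dashed lines, and the other 92 lie between them.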

How the data were processed

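Per the deposited description files, the authors quantified each total RNA-seq library against mm10 with annotation M21; their programs were not given in the sources used here. Deposited expected counts and estimated counts are reads per gene or transcript, not normalized, and the authors' TPM values are scaled by effective length. The authors' percent column, each transcript's share of its gene, was not used; shares were computed from TPM. The second quantification was summed per gene through GENCODE M21. Reads were matched to a C57BL/6J reference, and the effect of CAST/EiJ differences was not measured.

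Log2 ratios are of expected counts with 0.5 added, over TMM effective library sizes (edgeR 4.0.16) from 13745 genes with a summed rounded count of at least 50, with exact Clopper-Pearson 95% intervals. They hold counting error alone: without molecular identifiers, PCR copies of a molecule cannot be told from separate molecules. Of all expected counts, 0.532% and 0.427% were spike-ins; 26248 entries with a bare number for a name were not used. One group gives no test of a condition. Genes and lists were chosen with earlier results of these data known. Named were the 10 genes, their families, the highest, lowest and past-1.5-fold genes of each pathway list, the highest and lowest marker of a list, and transcripts with a mean share of at least 10%; not every such marker is printed. Some planned family shares are not reported here. With 2 libraries no likeness between genes was measured. Alternatives were other scales, the second quantification, other fold and count limits, and leaving out each library (levels and shares only). Identity between the family's proteins was not analysed here.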

Additional observations from a re-analysis of the deposited data

How the results depend on the processing

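The 10 genes were detected under every alternative except a limit of 5 TPM, which 9 passed. Of the 10, the number past 1.5-fold was 2 with total counts as the scale (Irs2 and Pik3r1) and 2 with spike-in counts (Igf1r and Irs2). A lower fold limit gave 3 (Igf1r, Irs2 and Pik3r1), and the number was 1 in the other alternatives run. Irs2 ranged from 1.42 to 1.82 and Pik3r1 from -0.60 to -0.28 on the log2 scale. The share of all genes past the fold, 5.17% as reported, was 8.98% with the spike-in scale (1037 higher, 197 lower), 3.48% on TPM with a pseudocount of 0.5 (152 higher, 326 lower), 1.56% at 2-fold, 16.1% at the lower fold limit, 32.0% of 24413 genes with no filter, 1.91% at a summed count of at least 500, and 2.39% within the TPM range of the 10 genes, which was added after seeing the data. Total counts gave 248 higher and 486 lower. Why the scales differ was not tested. Of 70 alternative log2 ratios of the 10 genes, 48 moved by no more than the counting error. The other 22 were all 10 with spike-in counts, 6 with total counts and 4 on TPM. The last 2 were with total counts without mitochondrial and haemoglobin genes. Leaving out a library leaves no ratio, and levels then rest on 1 animal. No paired analysis was possible because there is 1 group. Few expected counts stand behind some transcript shares: 130 and 147 for the Insr exon, 63.8 and 44.8 for the Igf1 exon, and 7.15 and 14.0 for Igf1 class 2 starts.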
